A study of Homo sapiens with 9 samples.

Results

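Silencing of the transcriptional co-activators YAP and TAZ in HUCCT-1 cells was carried out with 2 different pairs of small interfering RNAs (siRNAs), and the results below compare the 3 arrays of the second pair with the 3 arrays of the first pair, over all 39334 probe sets and without any scrambled array in the test. These are 6 of the 9 arrays of the series, and the other 3 hold cells that received scrambled siRNA. Both pairs were aimed at the same genes, YAP1 and WWTR1 (the gene of TAZ), so the comparison asks what depends on the siRNA pair beside the shared targets.

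HUCCT-1 is an established human cholangiocarcinoma line. Combination 1 joined siRNAs YAP1 and TAZ2 in the labels' numbering, combination 2 joined YAP2 and TAZ3, and the scrambled siRNA was named NTC. Which sequence the name TAZ3 stands for is not given in the sources used here. Cells of all 3 groups were transfected with 40 nM of siRNA by a lipid reagent and were harvested after 24 h. The silencing was transient and lowered the RNA without deleting the genes. RNA was measured on Clariom D arrays, whose deposited values are log2 signals, so that a difference of 1 is a 2-fold change and each probe set stands for 1 gene.

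YAP and TAZ are the effectors of the Hippo pathway. When the kinases of this pathway are inactive they enter the nucleus, bind TEAD factors and drive genes of growth and of cell contact such as CCN1, CCN2 and ANKRD1. Short duplex RNA can also meet the cell's own sensors of viral RNA. The sensors RIG-I and MDA5 signal to interferon genes, secreted interferon activates STAT and IRF factors, and these switch on interferon-stimulated genes through a promoter element named ISRE. An siRNA can in addition lower transcripts that match only its seed, and such off-target effects differ between siRNA sequences.

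All 6 arrays shared the same distribution of signals, with a median of 5.81 and a 90th percentile of 8.38. Pearson correlations over all probe sets lay between 0.991 and 0.992 within combination 1 and between 0.987 and 0.990 within combination 2. Across the pairs they lay between 0.985 and 0.992. The median absolute deviation of an array from its group mean was largest in replicate 3 of combination 2, at 0.084. In the other arrays of the pairs it ran from 0.051 to 0.069. The epithelial and biliary markers had mean signals of 9.46 to 9.69 in the 6 arrays. Hepatocyte, fibroblast, leukocyte and endothelial markers had mean signals of 5.24 to 5.64, near the median of all probe sets. Single members departed from these means. The hepatocyte marker SERPINA1 measured 9.31 to 9.59 and the epithelial marker MUC1 6.55 to 6.68. None of the 48 markers measured passed the test between the pairs. The sources do not state whether the 3 arrays of a group came from separate cultures, so the p-values measure the spread between these arrays, which may be technical.

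Both siRNA targets were lowered by both pairs, and no difference between the pairs was detectable for either target. YAP1 had log2 signals of 6.84, 6.85 and 6.95 with combination 1 and of 6.86, 6.73 and 6.97 with combination 2, against 9.15, 9.06 and 9.08 with scrambled siRNA. WWTR1 signals were 6.97, 7.06 and 7.02 with combination 1 and 6.95, 6.98 and 6.99 with combination 2, against 8.41, 8.30 and 8.38 with scrambled siRNA. For each gene the arrays of the 2 pairs overlapped, and every scrambled array lay above them. The difference of combination 2 minus combination 1 was -0.03 for YAP1, with a 95% confidence interval of -0.22 to 0.16 and an adjusted p of 0.944 (limma, Benjamini-Hochberg over all probe sets), and -0.04 for WWTR1, with an interval of -0.18 to 0.09 and an adjusted p of 0.848.

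The direct comparison of the pairs was carried by interferon-stimulated genes, which had lower signals with combination 2 than with combination 1. In limma's moderated test with an adjusted p under 0.05, 48 probe sets were lower with combination 2 (0.122% of all tested) and 7 were higher (0.0178%). The lower ones had differences of 0.58 to 1.90 in size with a median of 0.86, the higher ones of 0.60 to 0.93 with a median of 0.73, and the 16 probe sets with a difference of at least 1 were all lower. Of the 48, 45 are protein-coding genes, 1 is a transcribed pseudogene and 2 have no gene name here. Of the 46 with a name, 29 belong to 8 groups of interferon genes, 5 to other gene lists and 12 to none, whereas the 7 higher ones belong to no list. At an unadjusted p under 0.05 (limma) 1435 of all 39334 probe sets were lower and 1758 higher with combination 2. The arrays of the 2 pairs did not overlap for any of the 55, beside 6.49% of all probe sets that lay lower and 8.49% that lay higher with combination 2 without overlap. The count rests on all 6 arrays, since it fell to 0 without any array of combination 1 or without replicate 1 of combination 2 (limma, with 2233 to 3631 probe sets at an unadjusted p under 0.05), to 12 without replicate 2 and to 22 without replicate 3 of combination 2. In each of these 6 fits all 55 kept their sign and an unadjusted p under 0.05, with differences of 0.875 to 1.10 times those of the full fit.

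**Figure D1:**
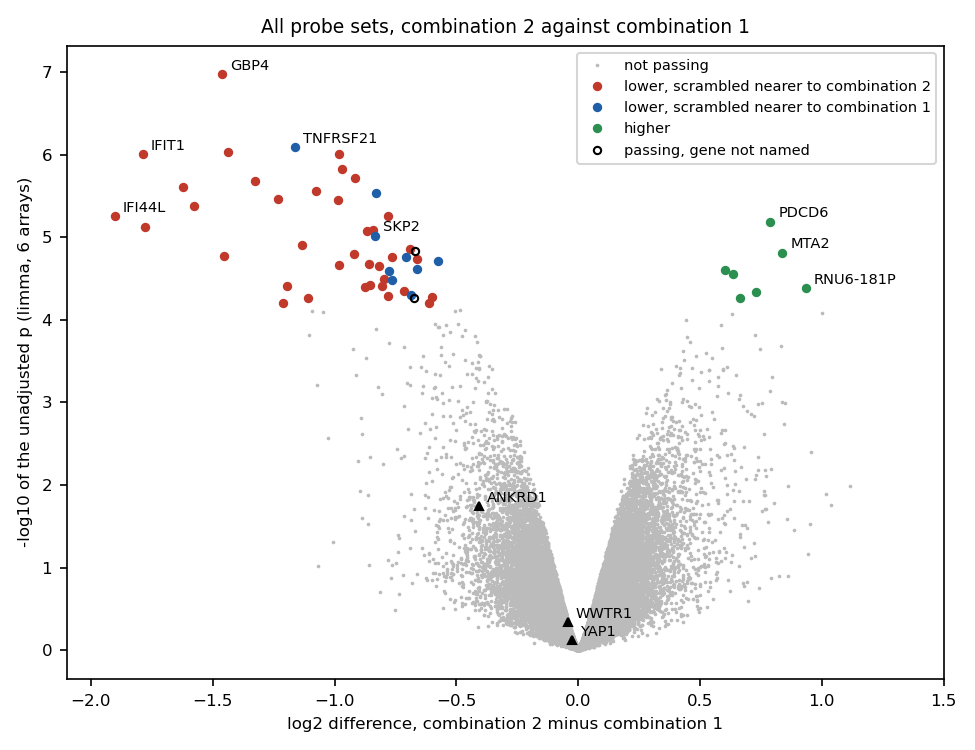
Log2 difference of combination 2 minus combination 1 (x axis) against -log10 of the unadjusted p of limma (y axis) for 39334 probe sets. The 48 lower and 7 higher probe sets that passed are coloured by the side on which the scrambled arrays lay, and the targets YAP1 and WWTR1 (triangles) sit near the origin while ANKRD1 lies to the left among those that did not pass.

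The promoters of these genes are shown because the lower genes moved together and because interferon-stimulated genes are known to carry the ISRE. The core GAAANNGAAA was searched on both strands (it reads TTTCNNTTTC on the other strand) from 250 bases before to 50 bases after each gene's start in RefSeq promoters of GRCh38.p14. Of the 46 named lower genes 37 had a promoter in this table, and 16 of them (43.2%) held the core, compared with 996 of all 27305 promoters (3.65%) and 473 of 14809 tested protein-coding genes (3.19%). Among the 24 lower genes of the interferon groups 14 held it (58.3%), among the other 13 lower genes 2 (15.4%), and of the 4 higher genes with a promoter 0. Windows around the core are given below for 6 genes that include 2 neighbouring genes on chromosome 4, read 5′ to 3′ along the gene's strand with the core in capitals. They lie at chr1:78620355-78620404 (plus strand) for IFI44L, chr10:89392487-89392549 (plus) for IFIT1, chr10:89327821-89327904 (plus) for IFIT3, chr13:42992262-42992311 (minus) for EPSTI1, chr4:168318776-168318860 (minus) for DDX60 and chr4:168480513-168480592 (minus) for DDX60L.
IFI44L: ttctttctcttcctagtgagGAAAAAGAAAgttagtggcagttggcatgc
IFIT1: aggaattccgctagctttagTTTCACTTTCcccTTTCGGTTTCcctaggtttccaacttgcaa
IFIT3: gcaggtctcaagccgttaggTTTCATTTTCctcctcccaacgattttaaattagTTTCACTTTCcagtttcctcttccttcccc
EPSTI1: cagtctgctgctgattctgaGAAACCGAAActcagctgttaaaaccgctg
DDX60: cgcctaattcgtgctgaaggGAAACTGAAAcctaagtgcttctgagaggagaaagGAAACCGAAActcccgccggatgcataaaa
DDX60L: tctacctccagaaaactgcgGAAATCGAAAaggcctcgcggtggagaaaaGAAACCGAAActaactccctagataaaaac
IFIT1, IFIT3, DDX60 and DDX60L each held 2 copies within the window shown, and IFI44L held a second copy further upstream. A match of letters is a description of the sequence, and binding at these positions was not measured here.

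The antiviral effectors, the proteins that act on viral RNA, entry or replication, made up the largest group. Of 37 measured members 20 were lower with combination 2 and none was higher, and the median difference was -0.82 beside -0.0026 for all probe sets. All 37 lay lower without overlap, beside 6.49% of all probe sets. IFI44L, an interferon-induced protein, had log2 signals of 10.93, 10.97 and 11.11 with combination 1 and of 9.07, 9.39 and 8.84 with combination 2, a difference of -1.90 (95% confidence interval -2.24 to -1.56, adjusted p 0.0135 in limma) or 3.74-fold lower. The scrambled arrays, at 8.13, 8.85 and 8.60, overlapped with combination 2 and lay far below combination 1. IFIT1, which binds viral RNA without the host's cap modification, measured 8.53, 8.43 and 8.63 with combination 1, 6.58, 6.91 and 6.75 with combination 2 and 6.18, 6.42 and 6.15 with scrambled siRNA, a difference between the pairs of -1.79 (adjusted p 0.00773). Here the 3 groups were fully separated, with combination 2 close above the scrambled arrays.

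IFIT2 differed by -1.58, with signals of 9.44, 9.35 and 9.68 against 7.75, 8.0 and 7.98, and IFIT3 by -1.11, with signals of 8.11, 8.01 and 8.33 against 6.96, 7.24 and 6.91 (adjusted p 0.0117 and 0.0409). For IFIT2 the scrambled arrays at 7.85, 7.92 and 8.0 lay within the range of combination 2. The dynamin-like GTPase MX2 measured 9.79, 9.82 and 10.00 with combination 1 and 8.12, 8.34 and 7.81 with combination 2 (difference -1.78, adjusted p 0.0164), and its relative MX1 measured 10.67, 10.60 and 10.66 against 9.44, 9.70 and 9.21 (difference -1.20, adjusted p 0.0358). Replicate 3 of combination 2 was the lowest array for both MX genes, and also for IFI44L, USP18 and OAS2. RSAD2, the radical SAM enzyme viperin, stood at 7.54, 7.71 and 7.77 against 5.89, 6.02 and 6.23 (difference -1.62, adjusted p 0.0105), and CMPK2, the mitochondrial nucleotide kinase encoded beside it, at 6.69, 6.76 and 6.66 against 5.73, 5.72 and 5.72 (difference -0.98, adjusted p 0.00773). Both genes were near the median signal of the array with combination 2 and with scrambled siRNA.

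Other effectors that passed were the restriction factors TRIM22 (difference -1.33) and TRIM5 (-0.69), the helicases DDX60 (-0.77) and DDX60L (-0.82), SAMD9 (-0.84) and SAMD9L (-1.08), which restrict poxviruses, the nuclear body proteins SP110 (-0.87) and SP100 (-0.61), the nucleic acid sensor IFI16 (-0.85), XAF1 (-0.92), EPSTI1 (-0.99) and IFI44 (-1.23). TRIM5 was the smallest response to combination 1 among them, at 8.08, 8.07 and 8.0 against 7.31, 7.36 and 7.41 with combination 2 and 7.46, 7.54 and 7.48 with scrambled siRNA. In this gene combination 2 lay below the scrambled arrays. The called genes lay next to each other in 6 pairs of the genome, namely IFI44L and IFI44, IFIT2 and IFIT3, CMPK2 and RSAD2, MX2 and MX1, DDX60 and DDX60L, and SAMD9 and SAMD9L, so that 12 of the 45 lower protein-coding genes had a called neighbour. In all, 18191 pairs of neighbouring protein-coding genes were tested, and 0 pairs were called higher. Neighbours that belong to the same family can be similar in sequence, and cross-hybridisation between their probes was not tested.

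**Figure D2:**
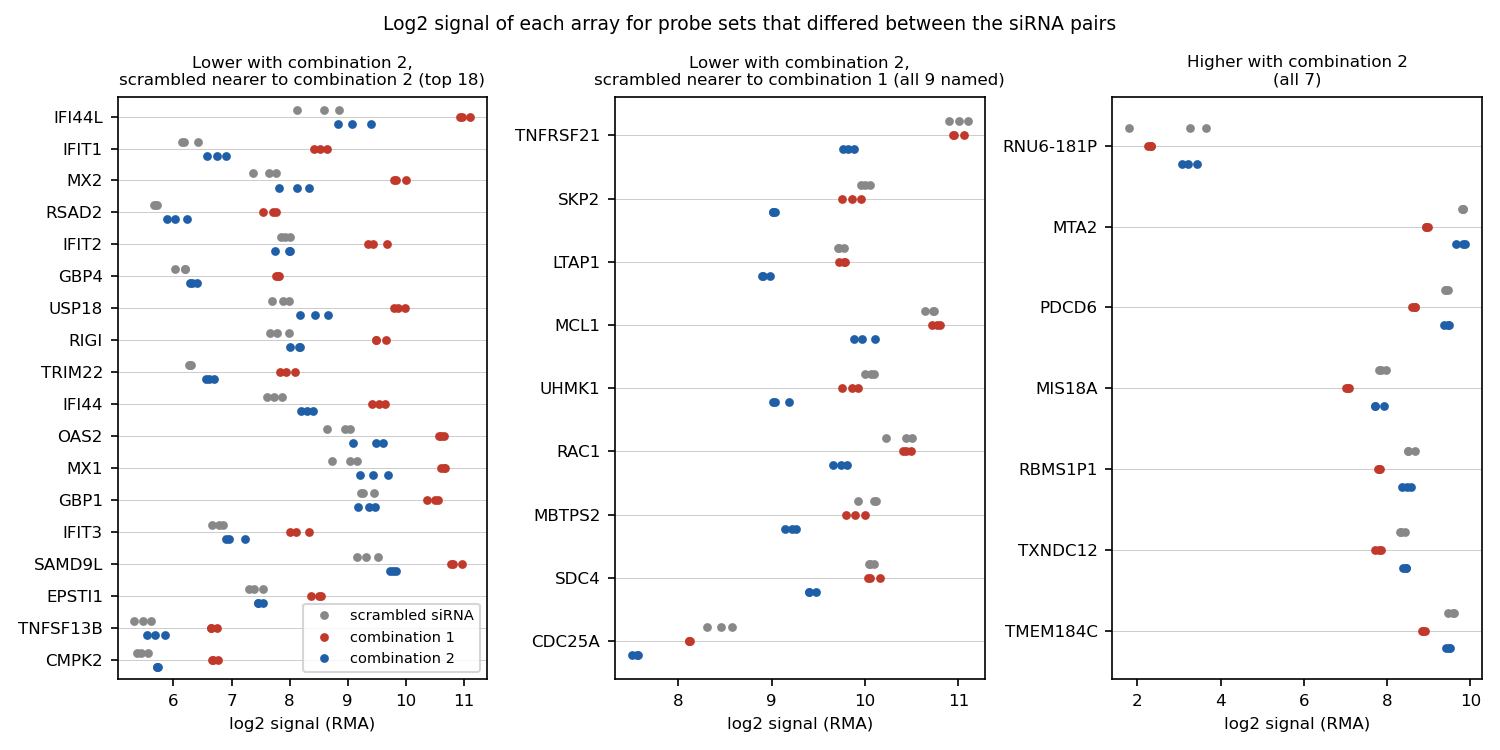
Log2 signal of each of the 9 arrays (x axis) for probe sets that passed between the pairs (y axis), in grey for scrambled siRNA, red for combination 1 and blue for combination 2, with 3 arrays per group. In the left panel (the 18 largest differences) the blue and grey points lie to the left of red. There blue and grey overlap for genes such as IFIT2 and GBP1, and blue lies wholly to the right of grey for genes such as IFIT1, IFI44 and TRIM22. In the middle panel blue lies to the left of red and grey, with red wholly between blue and grey for UHMK1, CDC25A and, narrowly, SKP2. In the right panel red alone lies to the left except for RNU6-181P, whose scrambled arrays spread from 1.81 to 3.66.

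Of 17 measured sensors of foreign RNA or DNA and their adaptors, 3 were lower with combination 2 and 14 did not pass. The median difference was -0.53, and 12 lay lower without overlap, beside 6.49% of all probe sets. RIGI, which encodes the RIG-I receptor for short double-stranded RNA with a 5′ triphosphate, measured 9.49, 9.49 and 9.66 with combination 1, 8.0, 8.18 and 8.16 with combination 2 and 7.67, 7.99 and 7.78 with scrambled siRNA (difference between the pairs -1.44, interval -1.63 to -1.24, adjusted p 0.00773 in limma). IFIH1, which encodes the MDA5 receptor for long double-stranded RNA, measured 8.53, 8.61 and 8.65 against 7.55, 7.77 and 7.84 (difference -0.87, adjusted p 0.0364). OAS2, an oligoadenylate synthetase that activates RNase L, measured 10.61, 10.57 and 10.65 against 9.48, 9.62 and 9.09 (difference -1.21, adjusted p 0.0445). In all 3 genes every array of combination 2 lay below every array of combination 1. OAS1 (-1.05) and OASL (-1.09), each with an adjusted p of 0.0537, and the RNA-activated kinase EIF2AK2 (-0.53, adjusted p 0.077) lay just outside the threshold.

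Of the 6 genes of the ISG15 pathway, in which a ubiquitin-like protein is joined to and removed from other proteins, 2 were lower. USP18, the protease that removes ISG15 and damps interferon receptors, measured 9.99, 9.80 and 9.86 with combination 1 and 8.45, 8.67 and 8.18 with combination 2 (difference -1.45, adjusted p 0.0236). HERC6, a HECT-type ligase of this family, differed by -0.66 (adjusted p 0.0242), while ISG15 itself differed by -0.58 (adjusted p 0.213) and UBE2L6, its conjugating enzyme, by -0.70 (adjusted p 0.165). Among 5 interferon-induced PARPs and partners, PARP14 (-0.97, adjusted p 0.00988) and PARP9 (-0.78, adjusted p 0.0135) passed, and DTX3L, the ubiquitin ligase that pairs with PARP9, had a difference of -0.48 (adjusted p 0.0532). Of 7 guanylate-binding proteins, GTPases that attack the membranes of pathogens, GBP4 and GBP1 passed. GBP4 had the smallest p of all probe sets, with 7.77, 7.79 and 7.82 against 6.28, 6.40 and 6.31 and scrambled arrays at 6.20, 6.21 and 6.02 (difference -1.46, interval -1.60 to -1.32, adjusted p 0.00421). GBP1 measured 10.36, 10.50 and 10.55 against 9.17, 9.36 and 9.48 (difference -1.13, adjusted p 0.0223), with scrambled arrays at 9.22, 9.46 and 9.26 inside the range of combination 2. GBP2 did not follow them, with 7.11, 7.05 and 6.82 against 6.86, 6.84 and 7.13 (difference -0.05, interval -0.32 to 0.22), and its arrays overlapped.

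The genes upstream of this response differed less. None of the 15 interferon ligands and receptors passed, with a median difference of -0.02 and 2 of them at an unadjusted p under 0.05, and 0 passed in the 9-array fit of limma too. IFNB1, the type I interferon of most cell types, had signals of 4.65, 4.28 and 4.83 with combination 1, 4.48, 4.72 and 4.17 with combination 2 and 4.44, 4.28 and 4.48 with scrambled siRNA, beside a 25th percentile of 4.77 for all signals of the array. IFNL1, a type III interferon, measured 5.37, 5.25 and 5.37 against 5.24, 5.14 and 5.25 (difference -0.12, interval -0.28 to 0.03). These are among the dim probe sets, and for IFNB1 the 3 groups overlapped. None of 15 STAT, IRF, JAK and SOCS genes passed (3 at an unadjusted p under 0.05, 0 in the 9-array fit). IRF7 had a difference of -0.48 (adjusted p 0.403), IRF1 of -0.36 (0.493) and IRF9 of -0.35 (0.358). Each of the 3 lay lower with combination 2 in every array, like 6.49% of all probe sets.

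Antigen presentation and NF-kB cytokines leaned the same way without a call. Of all 39334 probe sets, 6.49% lay lower without overlap and 1435 were lower at an unadjusted p under 0.05 (limma). All 16 measured genes of antigen presentation had negative differences, with a median of -0.19, 11 of them without overlap, 9 at an unadjusted p under 0.05 and 0 at an adjusted p under 0.05 in the 6-array or the 9-array fit. The peptide transporter TAP1 had the largest, at 8.52, 8.47 and 8.48 against 7.99, 8.04 and 7.69 (difference -0.58, adjusted p 0.205), and the immunoproteasome subunit PSMB9 differed by -0.40 (adjusted p 0.351). The HLA genes are near-identical in parts, so their probe sets may share signal. All 21 NF-kB cytokines and regulators also had negative differences, with a median of -0.32, 14 without overlap, 13 at an unadjusted p under 0.05 and 0 after adjustment in either fit. IL6 measured 7.56, 7.64 and 7.77 with combination 1, 6.96, 7.09 and 7.26 with combination 2 and 7.26, 7.21 and 7.13 with scrambled siRNA (difference -0.55, adjusted p 0.218). IL1A (-0.47), CXCL1 (-0.46), LIF (-0.44) and IL1B (-0.32) had adjusted p values of 0.337, 0.229, 0.321 and 0.263, and for CXCL1 the scrambled arrays at 9.72, 9.72 and 9.73 lay within the range of combination 1. Over all 8 interferon groups, 29 of 118 measured genes were lower and 0 higher, the median difference was -0.36, and 83 lay lower and 4 higher without overlap.

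**Figure D3:**
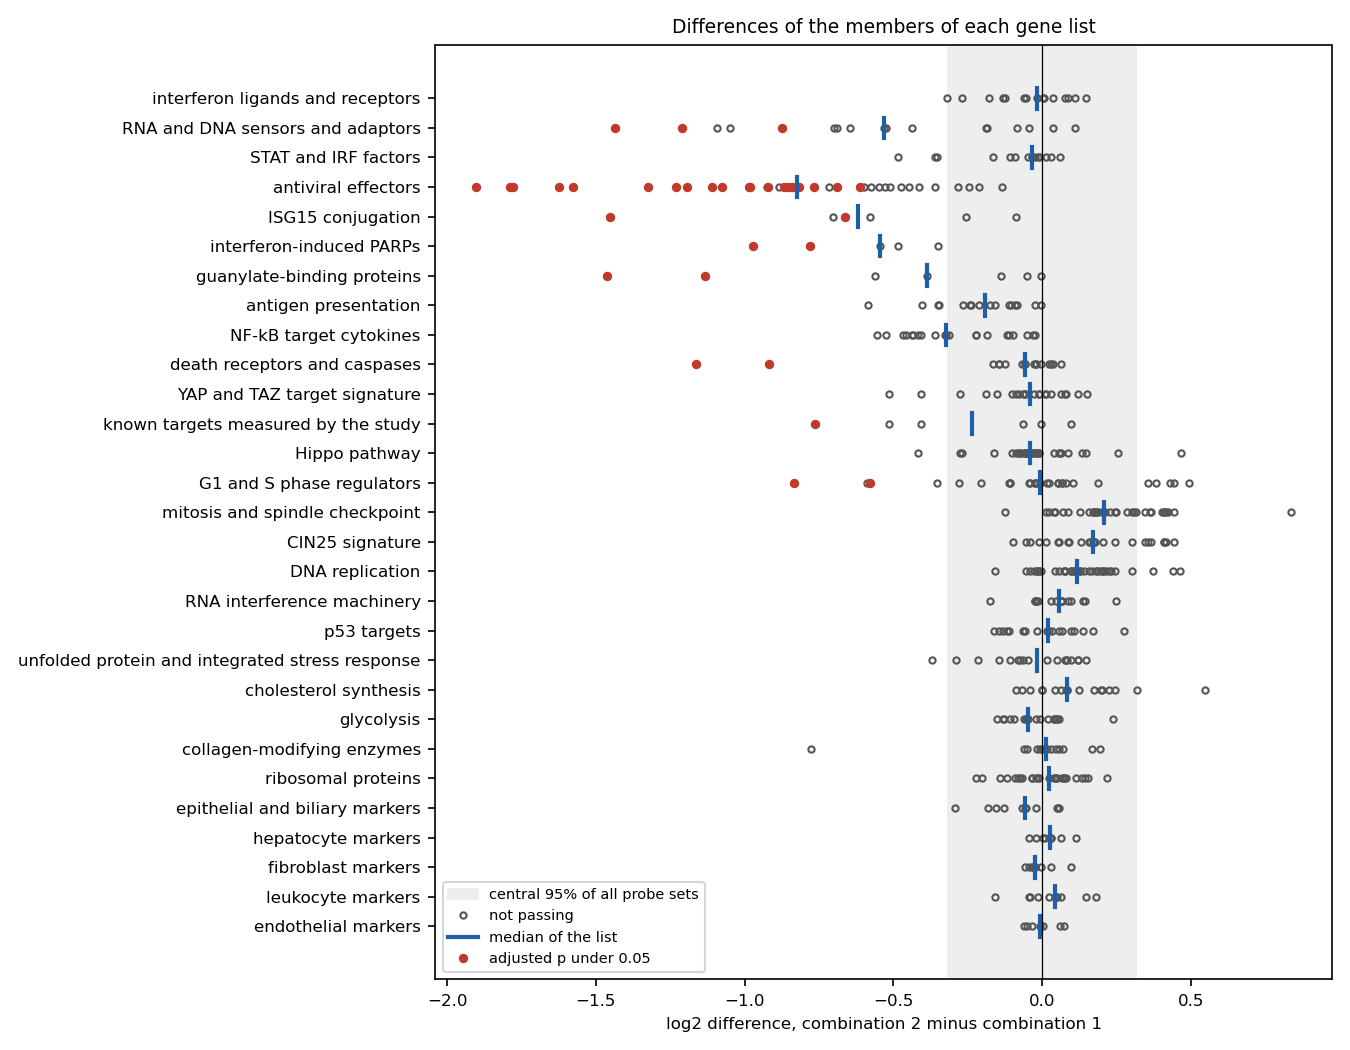
Log2 differences of combination 2 minus combination 1 (x axis) for the members of each gene list (y axis), filled in red where the adjusted p of limma was under 0.05, with the median of each list as a blue bar and the central 95% of all probe sets shaded. The antiviral effectors spread from -0.13 to -1.90 with a median of -0.82, and the 36 mitosis genes have a median of 0.21 with no member passing.

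Genes lower with combination 2 that stand in no interferon group included several known to respond to interferon. TNFSF10, the death ligand TRAIL, measured 9.34, 9.28 and 9.38 with combination 1, 8.38, 8.42 and 8.45 with combination 2 and 7.56, 7.70 and 7.53 with scrambled siRNA (difference between the pairs -0.92, adjusted p 0.0102). The 3 groups did not overlap, and combination 2 lay between the others, 0.82 above the scrambled mean. TNFSF13B, the B-cell cytokine BAFF, differed by -0.98 (6.64, 6.74 and 6.64 against 5.68, 5.55 and 5.86), the deoxynucleotide hydrolase SAMHD1 by -0.60 (10.25, 10.25 and 10.24 against 9.54, 9.69 and 9.70), and the ubiquitin ligase RNF213 by -0.78. LAMP3, a lysosomal membrane protein, differed by -0.80, CLTRN, a partner of amino acid transporters, by -0.86, TRANK1 by -0.71 and the transcribed pseudogene RNF4BP by -0.80.

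Where the scrambled arrays lay divided the 46 named lower genes. These levels are a description, since each difference from scrambled siRNA shares its arrays with the comparison of the pairs. In a fit of all 9 arrays, 578 probe sets (1.47%) passed between combination 1 and scrambled siRNA and 290 (0.737%) between combination 2 and scrambled siRNA. For 37 of the 46 genes the scrambled mean lay nearer to combination 2, and this set held all 29 genes of the interferon groups. In it the difference of combination 1 from scrambled siRNA ran from 0.56 to 2.48 with a median of 1.32, and that of combination 2 from -0.13 to 0.82 with a median of 0.36. The largest values with combination 2 were those of TNFSF10 (0.82, adjusted p 0.0013) and DDX60 (0.62, adjusted p 0.0052). For the other 9 genes the scrambled mean lay nearer to combination 1. Their difference of combination 1 from scrambled siRNA ran from -0.33 to 0.06, and that of combination 2 from -1.18 to -0.64, and their scrambled means of 8.45 to 11 placed them among the brighter probe sets.

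**Figure D4:**
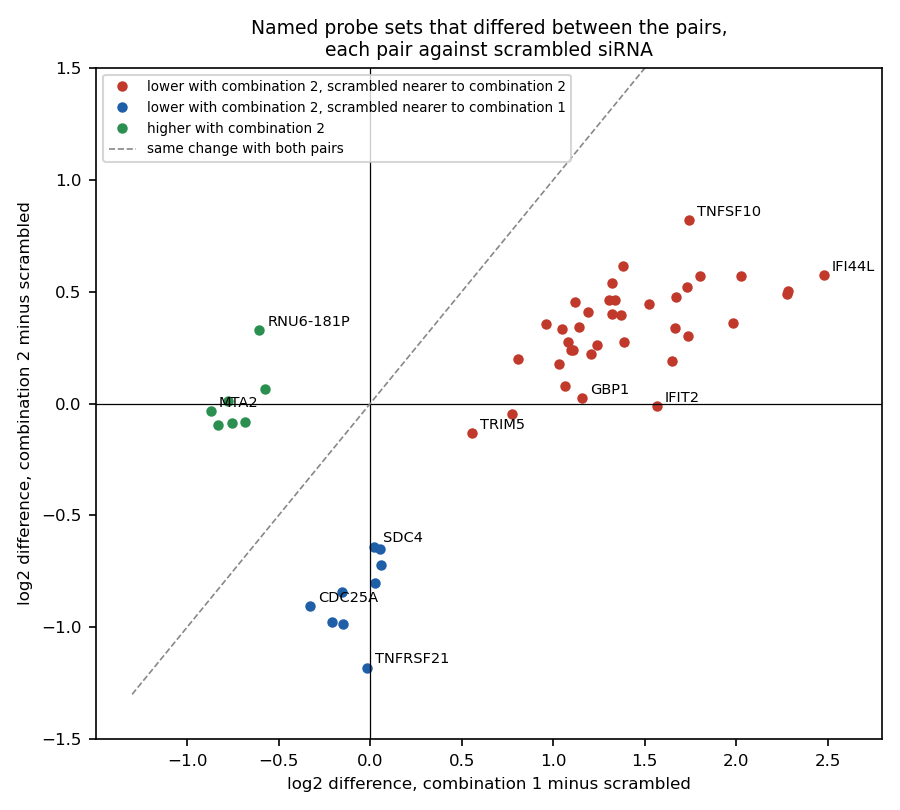
Difference of combination 1 from scrambled siRNA (x axis, log2) against that of combination 2 (y axis, log2) for the named probe sets that passed between the pairs, both from the 9-array fit. The dashed line marks equal change with both pairs, and the shared scrambled arrays enter both axes. The 37 red genes lie to the right at up to 2.48, the 9 blue genes lie below at up to -1.18, and the 7 green genes lie to the left.

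None of these 9 genes belongs to an interferon group. TNFRSF21, the death receptor DR6, measured 11.06, 10.95 and 10.94 with combination 1, 9.82, 9.88 and 9.77 with combination 2 and 11.01, 10.90 and 11.10 with scrambled siRNA (difference between the pairs -1.16, interval -1.32 to -1.01, adjusted p 0.00773 in limma), or 2.24-fold lower. Combination 1 overlapped with scrambled siRNA and combination 2 lay about 1 unit below both. SKP2, the F-box protein that marks the cell cycle inhibitor p27 for degradation, measured 9.95, 9.86 and 9.75 against 9.01, 9.01 and 9.03 with scrambled arrays at 10.00, 9.96 and 10.05 (difference -0.83, adjusted p 0.018). CDC25A, the phosphatase that activates cyclin-dependent kinases at the start of S phase, measured 8.11, 8.12 and 8.12 against 7.50, 7.57 and 7.55 with scrambled arrays at 8.57, 8.46 and 8.31 (difference -0.58, adjusted p 0.0246). For CDC25A the 3 groups were separated, with combination 1 in between.

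MCL1, an anti-apoptotic relative of BCL2, measured 10.72, 10.77 and 10.80 with combination 1, 9.88, 9.96 and 10.11 with combination 2 and 10.74, 10.73 and 10.64 with scrambled siRNA (difference between the pairs -0.78, adjusted p 0.0271). RAC1, a small GTPase of the actin cytoskeleton, measured 10.41, 10.49 and 10.44 against 9.81, 9.66 and 9.74 (difference -0.71, adjusted p 0.0236). Both stood at the scrambled level with combination 1. The heparan sulfate proteoglycan SDC4 (-0.66), the site-2 protease MBTPS2 (-0.69), which cleaves SREBP and ATF6, and LTAP1 (-0.83) behaved alike, with no array of combination 2 reaching those of combination 1. The collagen lysyl hydroxylase PLOD2, at 10.67, 10.62 and 10.52 against 9.73, 9.71 and 10.04 (difference -0.78, adjusted p 0.0939), was of similar size and did not pass, with replicate 3 of combination 2 above the other 2 arrays.

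The 7 probe sets that were higher with combination 2 were mostly at the scrambled level in that group. MTA2, a subunit of the NuRD chromatin remodelling complex, measured 8.93, 8.92 and 8.97 with combination 1, 9.81, 9.87 and 9.65 with combination 2 and 9.81, 9.82 and 9.80 with scrambled siRNA (difference between the pairs 0.84, interval 0.66 to 1.01, adjusted p 0.0236 in limma). PDCD6, the calcium-binding protein ALG-2, measured 8.67, 8.60 and 8.67 against 9.37, 9.47 and 9.46 with scrambled arrays at 9.39, 9.46 and 9.42 (difference 0.79, adjusted p 0.015). In both genes combination 1 alone lay low. MIS18A, which takes part in loading CENP-A at centromeres, differed by 0.73 (7.02, 7.07 and 7.08 against 7.72, 7.71 and 7.93), TXNDC12, a thioredoxin-like protein of the endoplasmic reticulum, by 0.64, TMEM184C by 0.60 and the pseudogene RBMS1P1 by 0.67. Over these 6 the difference of combination 1 from scrambled siRNA ran from -0.87 to -0.57 and that of combination 2 from -0.10 to 0.06. RBMS1, the parent gene of RBMS1P1, differed by 0.59 (adjusted p 0.0694), and their probes may share signal. RNU6-181P, a pseudogene of the U6 small nuclear RNA, had the largest difference of the 7 (0.93) at signals of 2.26 to 3.43, among the dimmest on the array, and its adjusted p was 0.0366 in the 6-array fit of limma and 0.551 when the scrambled arrays entered the fit.

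Further genes had higher signals with combination 2 and did not pass. CNIH1, a cargo receptor of the secretory pathway, lay just outside the threshold, at 8.45, 8.46 and 8.55 with combination 1, 9.34, 9.38 and 9.74 with combination 2 and 9.58, 9.48 and 9.50 with scrambled siRNA (difference 1.00, interval 0.72 to 1.28, adjusted p 0.054). MPZL3 differed by 0.83 (adjusted p 0.101), MAT2B, the regulatory subunit of methionine adenosyltransferase, by 0.76 (0.215), the mitochondrial pyruvate carrier MPC2 by 0.72 (0.0815), and DNAJC16 by 0.63 (0.055). None of their arrays overlapped between the pairs, beside 8.49% of all probe sets that lay higher without overlap. EPAS1, the hypoxia-inducible factor HIF-2α, lay below scrambled siRNA with both pairs, at 7.76, 7.66 and 7.65 with combination 1, 8.17, 8.18 and 8.10 with combination 2 and 8.52, 8.53 and 8.58 with scrambled siRNA (difference between the pairs 0.46, adjusted p 0.0932).

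Known targets of YAP and TAZ were compared next, since the pairs share these factors. Of 6 measured known targets, UHMK1, a serine/threonine kinase, passed, with 9.92, 9.86 and 9.75 with combination 1, 9.02, 9.04 and 9.18 with combination 2 and 10.06, 10.00 and 10.10 with scrambled siRNA (difference between the pairs -0.76, adjusted p 0.0322). It is 1 of the 9 genes described above, and combination 1 lay between combination 2 and the scrambled arrays without overlap. ANKRD1, a muscle ankyrin protein and a strong YAP target, measured 9.33, 9.40 and 9.56 against 8.85, 8.93 and 9.29 (difference -0.41, interval -0.72 to -0.10, adjusted p 0.522), with scrambled arrays at 11.72, 11.62 and 11.41. The matricellular protein CCN1 measured 10.75, 10.75 and 10.84 against 10.27, 10.36 and 10.16 (difference -0.52, interval -0.69 to -0.34, adjusted p 0.115), with scrambled arrays at 11.35, 11.39 and 11.46. Both targets lay lower with combination 2 in every array, like 6.49% of all probe sets, and fell short of the threshold. For CCN2 the difference was -0.06 with an interval of -0.21 to 0.09, for DLC1 the interval was -0.14 to 0.13, and for AGO2, the slicing protein of RNA interference, the difference was 0.10 with an interval of -0.04 to 0.24.

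None of the 22 genes of a YAP/TAZ target signature passed, with a median difference of -0.04, 4 lower and 1 higher at an unadjusted p under 0.05, and 1 called lower in the 9-array fit. Their mean log2 signal was 8.69, 8.70 and 8.71 with combination 1 and 8.62, 8.64 and 8.65 with combination 2, against 9.04 in each scrambled array. Against scrambled siRNA 8 of them passed as lower with combination 1 and 7 with combination 2. None of the 32 Hippo pathway genes passed (median -0.04, 4 lower and 2 higher at an unadjusted p under 0.05, and 1 called higher in the 9-array fit). WWC1, an upstream activator of the pathway, had a difference of -0.42 (adjusted p 0.152), the angiomotin family member AMOTL2 of -0.28 (0.403) and the TEAD cofactor VGLL1 of 0.47 (0.158). They were among the 7 lower and 4 higher Hippo pathway genes without overlap, beside 6.49% and 8.49% of all probe sets.

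Genes of mitosis and DNA replication had somewhat higher signals with combination 2, and no single member passed. Of all 39334 probe sets, 8.49% lay higher without overlap and 1758 were higher at an unadjusted p under 0.05 (limma). Of 36 mitosis genes 35 had a positive difference and 23 lay higher without overlap, with a median of 0.21. Of these 36, 19 had an unadjusted p under 0.05 and 0 passed in the 6-array or the 9-array fit. Their mean signal was 8.23, 8.23 and 8.06 with combination 1, 8.40, 8.38 and 8.48 with combination 2 and 8.71, 8.62 and 8.60 with scrambled siRNA, so both pairs lay below scrambled siRNA and combination 1 lay lower. The kinesin KIF20A measured 8.15, 8.08 and 7.78 against 8.50, 8.44 and 8.40 (difference 0.45, adjusted p 0.395). The topoisomerase TOP2A measured 9.46, 9.47 and 9.29 against 9.77, 9.70 and 9.97 (difference 0.41, adjusted p 0.368), and its scrambled arrays were at 10.20, 10.13 and 10.08. Both genes were lowest in replicate 3 of combination 1. CENPQ, a kinetochore subunit, had the largest difference of the list (0.84, adjusted p 0.215), and smaller ones were those of CEP55 (0.42), CENPE (0.40), CCNB2 (0.37) and BUB1B (0.32).

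**Figure D5:**
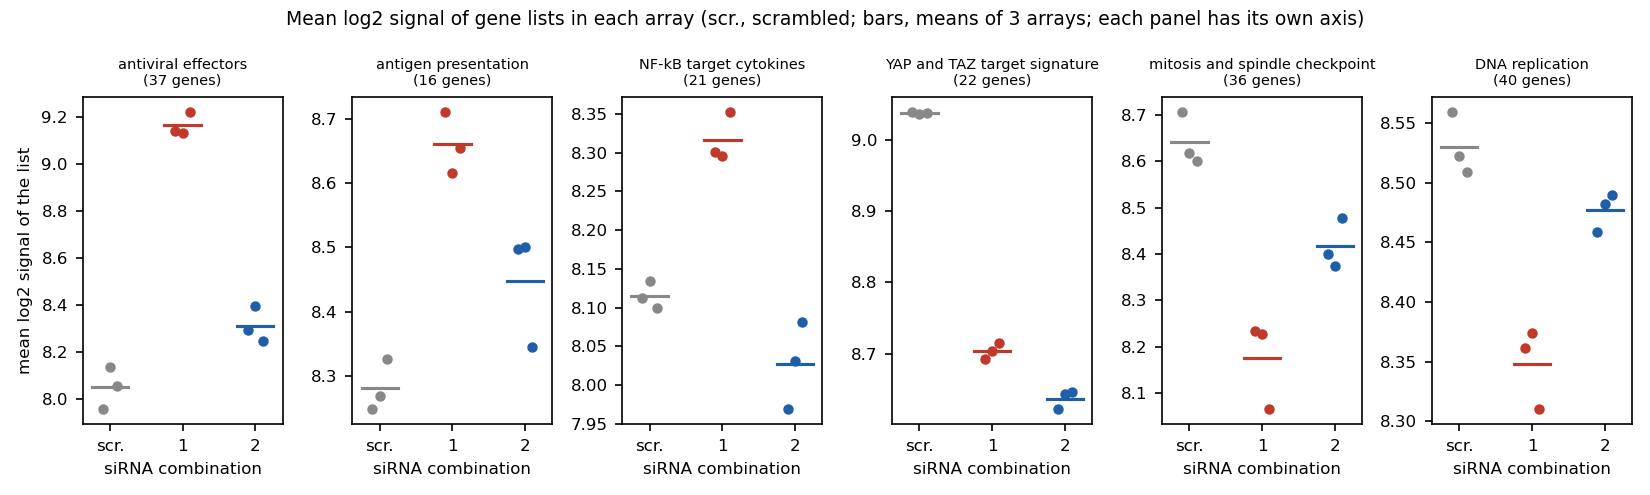
Mean log2 signal of 6 gene lists (y axis, with its own range in each panel) in each array of scrambled siRNA (grey), combination 1 (red) and combination 2 (blue), with bars at the mean of 3 arrays. The antiviral effectors stand at 9.13 to 9.22 with combination 1, at 8.25 to 8.39 with combination 2 and at 7.96 to 8.14 with scrambled siRNA, whereas the YAP and TAZ signature lies below the scrambled arrays with both pairs.

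The CIN25 signature of chromosomal instability, which shares genes with the mitosis list, had a median difference of 0.17, with 21 of 25 genes positive, 14 higher without overlap, 11 at an unadjusted p under 0.05, 0 called, and 1 called higher in the 9-array fit. Its member TRIP13, an ATPase of the spindle checkpoint, measured 8.70, 8.70 and 8.63 against 9.02, 9.13 and 9.14 (difference 0.42, adjusted p 0.134). Of 40 DNA replication genes 31 were positive and 20 lay higher without overlap, with a median of 0.12. Of these 40, 14 were higher at an unadjusted p under 0.05, 0 were called, and 1 was called higher in the 9-array fit. For CIN25 and DNA replication alike, 8.49% of all probe sets lay higher without overlap. Of all 39334, 1758 were higher at an unadjusted p under 0.05 (limma). The GINS complex subunit GINS1 had a difference of 0.47 (adjusted p 0.134) and the helicase subunit MCM5 of 0.44 (adjusted p 0.395). Among 29 regulators of G1 and S phase SKP2 and CDC25A were the only ones to pass, while the pocket protein RBL2 (0.50, adjusted p 0.176), the kinase CDK2 (0.36, adjusted p 0.261) and the inhibitor CDKN2B (-0.35, adjusted p 0.134) did not.

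Among the remaining lists, 18 measured cholesterol synthesis genes had a median difference of 0.08 and 0 called, with 5 higher at an unadjusted p under 0.05 and 0 called in the 9-array fit, and the squalene epoxidase SQLE differed by 0.55 (adjusted p 0.246). The lists of RNA interference machinery, p53 targets, the unfolded protein response, glycolysis, collagen-modifying enzymes and ribosomal proteins had medians between -0.05 and 0.06 and no call in the 6-array fit of limma, with 0 to 2 members of each at an unadjusted p under 0.05.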

How the data were processed

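The authors deposited 1 table of log2 signals per probe set for 9 Clariom D arrays, grouped into Entrez gene probe sets by custom CDF version 22 and normalized, after background correction, with RMA (version not given in the sources used here). The 6 arrays of the siRNA pairs were fitted with lmFit and eBayes of limma 3.58.1 in R 4.3.3, as group means with moderated variances (prior degrees of freedom 2.51), with the Benjamini-Hochberg adjustment of p over all 39334 probe sets and a threshold of 0.05. RMA had already given the arrays a common distribution, so differences are relative to it. No filter on dim probe sets was set, and 3 arrays per group limit the precision. Differences from scrambled siRNA came from a fit of all 9 arrays. Gene symbols were listed for 37201 probe sets, of which 37154 matched RefSeq, and 2133 were not named here.

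The comparison, the gene lists and the genes named were chosen with earlier results of these data known. The rule for named genes took the siRNA targets, the 15 largest differences in each direction among probe sets that passed without overlap (7 passed as higher, so the other 8 were taken by p and did not pass), the known targets the study measured, up to 6 members of each list by p, and 10 genes that earlier results had named. Not all of these are named in the text, and lists without a call are partly given by counts alone. Further genes that passed, or that belong to the lists, were named after their values were seen. Alternatives were the arrays in the fit, normalization, a filter on dim probe sets, the variance model, array weights, the set of probe sets, a minimum difference, a block for replicate number and leaving out each array. The code was tested on simulated data. Tables and figures were made in Python 3.11.15.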

Additional observations from a re-analysis of the deposited data

Results flagged for a closer look

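The following genes had the largest difference between the siRNA pairs in each of 3 classes of named probe sets that passed, so they are extremes. The classes were lower with combination 2 where combination 1 alone passed against scrambled siRNA, lower where combination 2 alone did, and higher where combination 1 alone did. In each gene the pairs' own differences from scrambled siRNA lay differently, which makes the size of the YAP/TAZ siRNA effect depend on the pair. IFI44L differed between the pairs by -1.90, with combination 1 at 2.48 above scrambled siRNA and combination 2 at 0.57 above it. TNFRSF21 differed by -1.16, with combination 1 at -0.02 and combination 2 at -1.18 from scrambled siRNA. MTA2 differed by 0.84, with combination 1 at -0.87 and combination 2 at -0.03 from scrambled siRNA. Groups of 3 arrays are too small for a test of single outlying arrays, so none was made.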

How the results depend on the processing

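The counts depended on the variance estimate and on the number of probe sets tested, and the cause was not tested. Beside 55 probe sets in the main test (48 lower and 7 higher, 29 lower in the interferon groups), the fit of all 9 arrays called 128 (92 lower, 36 higher), leaving out the dimmest 40% 120 (88 lower, 32 higher), and protein-coding genes alone 201 (127 lower, 74 higher, with 50 lower in the interferon groups). Trend and robust variances called 15 higher and array weights 12 higher. A log2 difference of at least 1 left 16, all lower with 0 higher, of which 15 were in the interferon groups. The ordinary linear model called 0 in either direction, with 2892 probe sets at an unadjusted p under 0.05. With the replicate number as a block the count was 0 in either direction and 0 in the interferon groups (limma, 2829 at an unadjusted p under 0.05). The numbers did not pair the arrays, since the correlations of their deviations were 0.0217, -0.0462 and -0.0212. Leaving out each array gave 0 to 22 in all, 0 to 20 lower, 0 to 2 higher and 0 to 12 in the interferon groups. Under these settings the 55 probe sets kept their sign and an unadjusted p under 0.05 wherever they were tested. Quantile normalization again and median centring changed no count, because the arrays already share a distribution. Cyclic loess, chosen after seeing the data, called 53, of which 52 were among the 55. Leaving out an array turned the sign of 4 named genes near 0, with ranges of -0.085 to 0.035 for YAP1, -0.024 to 0.024 for DLC1, -0.145 to 0.0072 for GBP2 and -0.284 to 0.012 for IFNB1.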
